A study of Mus musculus with 50 samples.

Results

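Chemokines are small secreted proteins that guide migrating leukocytes through receptors on the responding cell. Regulatory T cells (Treg cells), CD4 T cells defined by the transcription factor Foxp3, can make some of them, and the ligand decides which cell type is drawn near. Cxcl2 and Cxcl3 act on Cxcr2, mainly on neutrophils, Cxcl10 acts on Cxcr3 of activated T cells, Ccl3 and Ccl4 draw monocytes and activated T cells, Ccl1 acts on Ccr8, Xcl1 acts on Xcr1 of cross-presenting dendritic cells, and Ccl20 acts on Ccr6. These 8 ligand genes, taken by name, are 8 entries of a table of 55011 gene symbols and are described over 16 groups of sorted mouse T cells.

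The 50 RNA-seq libraries were made from 500 to 1000 double-sorted CD4 cells each, all from male mice whose genotype label reads WT. Thymus cells came from the strain B6.Cg-Foxp3tm1Kuch/J at day 5, 12 and 49 after birth, with 3 libraries for each age and population: P1 are CD25+ Foxp3- and P2 are CD25- Foxp3+. Peripheral Foxp3-GFP+ Treg cells came at week 20 from mice carrying Foxp3tm3(HBEGF/GFP)Ayr, which puts the diphtheria toxin receptor and GFP at Foxp3, on the B6.129(Cg) background. Their source was visceral adipose tissue (VAT), ear skin, liver, lung or spleen. Each tissue has a PBS-labelled and a DT-labelled arm (DT, diphtheria toxin) of 3 libraries, or 4 for VAT. The series text speaks instead of receptor-positive and receptor-negative littermates given the toxin on 3 days at 12 weeks and rested for 8 to 9 weeks, so the labels do not settle what the PBS-labelled mice received. The sort took the cells that carried Foxp3-GFP at the end of that rest, and how far Treg cells had been depleted before cannot be told from the labels. Nothing in the labels says whether each library is its own mouse. The p-values therefore reflect library-to-library spread, which may be technical.

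Library totals ran from 2521078 to 6981037 counts, so that 1 count stands for 0.143 to 0.397 CPM, the unit of counts scaled to library size. Levels are TMM-normalised CPM, and a call is an edgeR adjusted p of at most 0.05 over all genes tested. Foxp3 averaged 254 to 405 CPM in the 10 peripheral groups, 282 to 769 CPM in the 3 P2 groups and 8.01 to 13.9 CPM in the 3 P1 groups. A few libraries stood apart by markers of other cells. The summed level of 8 macrophage and monocyte markers was 69.9 and 83.9 CPM in replicates 2 and 3 of day 49 P2, 69.1 CPM in replicate 1 of PBS-labelled lung and 100.4 CPM in replicate 7 of DT-labelled VAT, against 24.1 CPM or less in each of the other libraries. That VAT library also held 542 CPM of 5 fibroblast markers. The day 12 P1 libraries detected 27911 to 31478 genes and replicates 2 and 3 of day 49 P2 27729 and 28765. The other thymus libraries detected 18209 to 21664. In day 12 P1, 6 neutrophil markers summed to 3.94 to 7.62 CPM, against 0.868 CPM or less in P1 at day 5 and 49. The part of this in the day 12 comparisons was not tested. In sorted bulk cells, fewer cells making a message and less message per cell cannot be told apart.

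**Figure D1:**
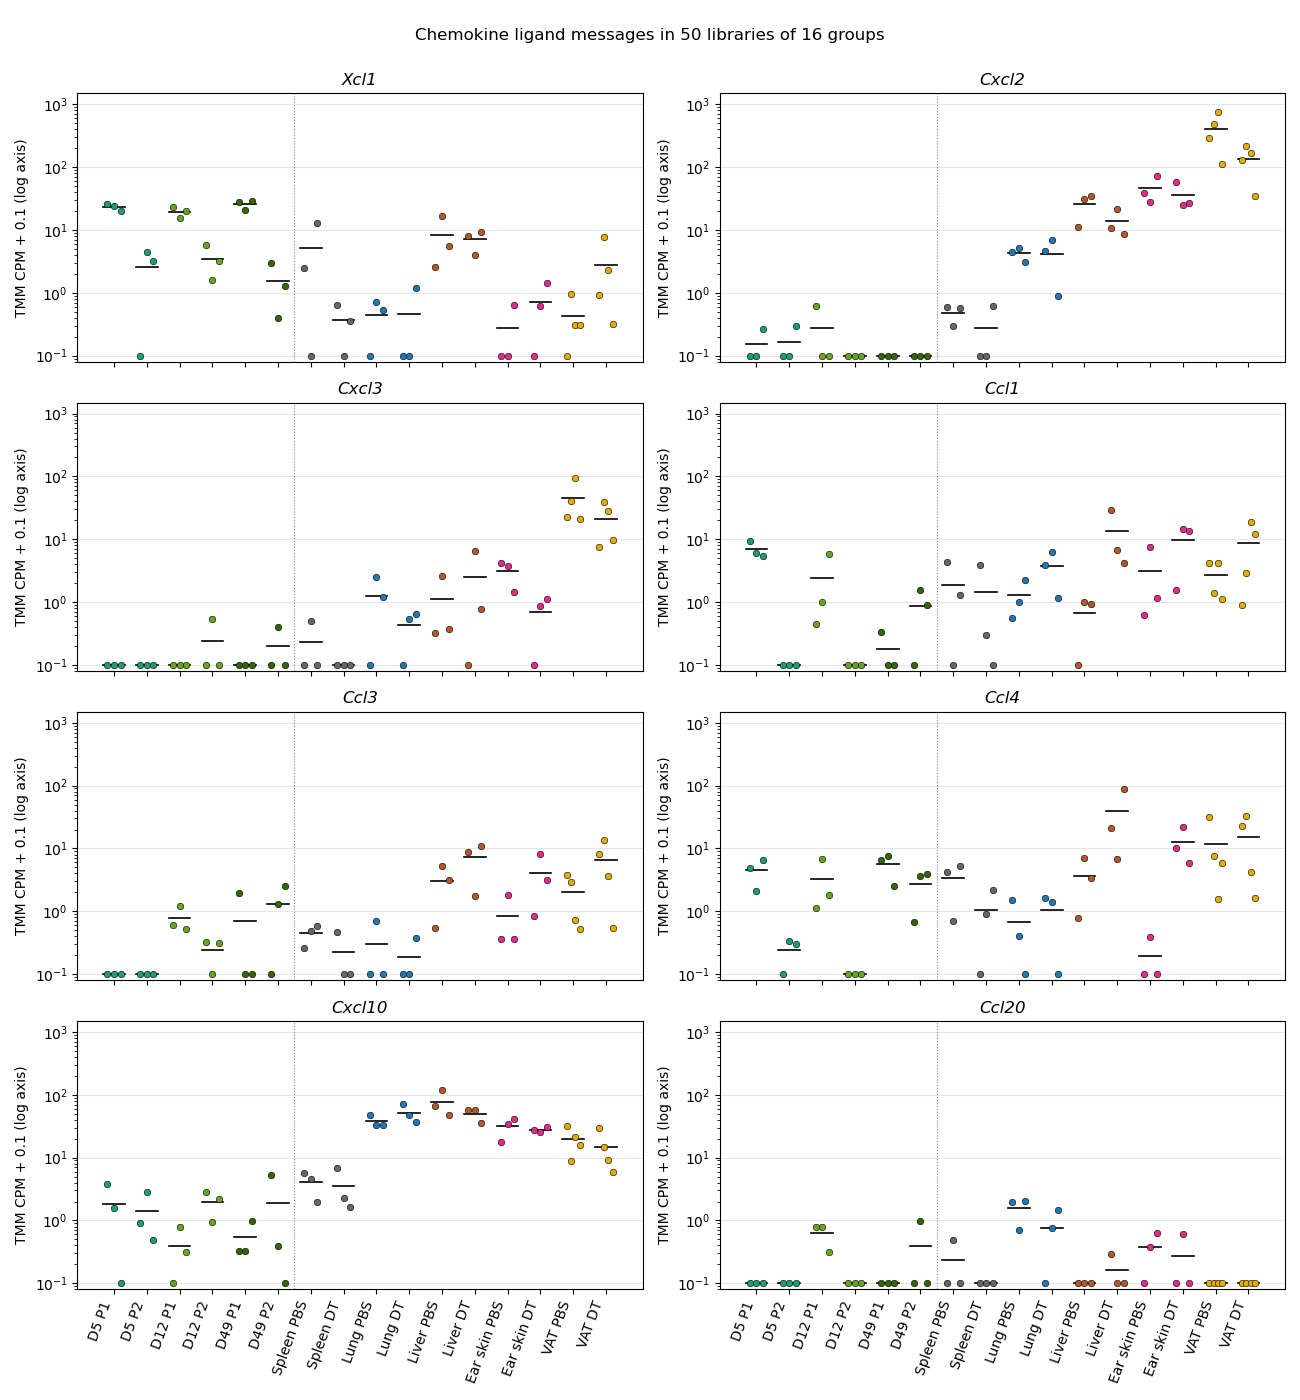
Each point is 1 library (x axis, 16 groups; y axis, TMM CPM + 0.1 on a log axis) and each bar a group mean, with 1 panel per ligand and a dotted line between thymus and periphery. Cxcl2 and Cxcl3 were highest in VAT, Cxcl10 was high in all 4 non-lymphoid tissues, Xcl1 was highest in P1 thymocytes and Ccl20 did not pass 1.95 CPM.

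In the PBS-labelled arm, 10 of 28 tests of a ligand in a tissue against spleen were called higher and 2 lower. By tissue, 2 of 7 tested ligands were called higher in lung, where 8.14% of all genes tested were called higher, 2 of 7 in liver (9.15% of all genes), 3 of 7 in ear skin (11.1%) and 3 of 7 in VAT (8.67%). The lower calls were 1 of 7 in ear skin (12.5% of all genes called lower) and 1 of 7 in VAT (6.27%), with 0 in lung (7.79%) and liver (7.85%). In the DT-labelled arm, which has its own spleen libraries, 17 of 28 tests were called higher and 0 lower. These were 2 of 7 ligands in lung (8.48% of all genes), 6 of 7 in liver (8.18%), 4 of 7 in ear skin (10.5%) and 5 of 7 in VAT (5.7%). For the 0 lower calls of edgeR, the share of all genes called lower was 6.15% in lung, 5.08% in liver, 11.6% in ear skin and 3.15% in VAT. Among the 28 tests 21 had an unadjusted p under 0.05. Ccl20 was not tested in any comparison because its counts did not pass the expression filter.

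Cxcl2 and Cxcl3 lie 114 kb apart on chromosome 5 and had the largest fitted differences between PBS-labelled VAT and spleen among the 7 ligands tested. Their upstream sequences are shown because both hold the same letters matching the NF-kB consensus. The sequences are RefSeq's for GRCm38.p6, on the plus strand, from chr5:90903751-90903870 (Cxcl2) and chr5:90785981-90786100 (Cxcl3), and stop before the first annotated exon. Capitals mark the match to the NF-kB consensus on both strands.
Cxcl2: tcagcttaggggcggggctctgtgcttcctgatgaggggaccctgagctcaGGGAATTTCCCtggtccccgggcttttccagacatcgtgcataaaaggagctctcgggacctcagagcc
Cxcl3: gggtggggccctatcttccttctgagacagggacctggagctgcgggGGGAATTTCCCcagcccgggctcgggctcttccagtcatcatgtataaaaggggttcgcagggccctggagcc
The letters GGGAATTTCC were read from these 2 promoters, so their presence in both was fixed in advance. Searched on both strands in the 250 bases before the RefSeq start, they occurred in 28 of 32851 promoters (0.0852%). Of the 7 ligand promoters found, only these 2 held them. The wider 10-letter NF-kB consensus occurred in 7.25% of promoters and in 5 of the 7, those of Cxcl2, Cxcl3, Ccl1, Cxcl10 and Ccl20. Over the 250 bases, the Cxcl2 and Cxcl3 promoters were 58.7% identical in a global alignment, while the other pairs among the 7 ranged from 44.0% to 51.5%. A match is a stretch of letters and not a measured binding site.

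Cxcl2 was the most abundant of the 8 messages in VAT and close to absent from spleen and thymus. In PBS-labelled VAT the 4 libraries held 288, 481, 756 and 111 CPM, and in DT-labelled VAT 129, 214, 169 and 34.4 CPM. Spleen held 0.49, 0.20 and 0.47 CPM in the PBS-labelled arm and 0, 0 and 0.52 CPM in the other, and none of the 18 thymus libraries passed 0.51 CPM. Every VAT library of either arm was therefore above every spleen library. PBS-labelled VAT was higher than spleen by 9.97 ± 0.89 (log2 fold change ± SE, edgeR adjusted p = 2.83e-10). In the DT-labelled arm only 2 counts were seen over the 3 spleen libraries, and the ratio of VAT to spleen was 971 (95% counting interval 268 to 8021, edgeR adjusted p = 1.27e-08). Such intervals cover counting error only, since the reads carry no stated molecular identifiers.

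The other tissues followed in a graded order for Cxcl2. Ear skin held 39.0, 27.4 and 72.3 CPM in the PBS-labelled arm and 57.3, 24.5 and 26.5 CPM in the DT-labelled arm. Liver held 10.9, 31.6 and 35.2 CPM in the PBS-labelled arm and 10.9, 21.8 and 8.42 CPM in the DT-labelled arm. Lung held 4.41, 5.12 and 3.03 CPM, and 4.57, 6.81 and 0.80 CPM, in the 2 arms. With the groups of both arms ranked together, neighbours overlapped from VAT down to liver. The ranges of liver and lung did not overlap, and neither did those of lung and spleen. Within the PBS-labelled arm every VAT library lay above every ear skin library. Within the DT-labelled arm every ear skin library lay above every liver library, while VAT and ear skin overlapped. Ear skin was above spleen by 6.92 ± 0.90 in the PBS-labelled arm (edgeR adjusted p = 4.07e-07) and liver by 6.004 ± 0.93 (edgeR adjusted p = 1.31e-05). In the DT-labelled arm the counting ratio to spleen was 247 for ear skin (67.9 to 2050) and 100.2 for liver (27.3 to 834), both called. Lung was called higher in the PBS-labelled arm (3.37 ± 1.14, edgeR adjusted p = 0.0381) and in the DT-labelled arm (ratio 30.6, interval 8.04 to 259, edgeR adjusted p = 0.0189). The first call ended without replicate 1 of lung, the library with many macrophage markers (edgeR adjusted p = 0.0833), without replicate 2 of lung (0.0903) or without replicate 1, 2 or 3 of spleen (0.13, 0.107 and 0.063). The other ended without replicate 4 or 5 of spleen or replicate 5 of lung (0.0863, 0.0788 and 0.106). With limma voom the lung and liver calls of both arms and the PBS-labelled ear skin call were lost (adjusted p = 0.0514 to 0.504).

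Cxcl3 was also highest in VAT, at lower counts, while the order of the other tissues differed from that of Cxcl2 and their libraries overlapped. PBS-labelled VAT held 22.3, 41.1, 93.4 and 20.9 CPM and DT-labelled VAT 7.31, 38.9, 28.3 and 9.48 CPM, and no library outside VAT passed 6.48 CPM, so that every VAT library was above all others. Against spleen, with 2 counts over 3 libraries, the ratio in the PBS-labelled arm was 338 (93.4 to 2798, edgeR adjusted p = 1.36e-05). DT-labelled spleen had 0 counts, and VAT was at least 97.5-fold higher against a floor of 3 counts over that group (edgeR adjusted p = 7.77e-05). In PBS-labelled ear skin Cxcl3 held 4.14, 3.67 and 1.32 CPM and was called higher (ratio 23.6, interval 6.05 to 203, edgeR adjusted p = 0.0188). That call ended with limma voom (adjusted p = 0.235) and without replicate 1 or 3 of spleen (edgeR adjusted p = 0.101 and 0.0506) or replicate 1 or 2 of ear skin (0.0571 and 0.0504). DT-labelled liver held 0, 6.48 and 0.67 CPM and was called at least 11.1-fold higher (edgeR adjusted p = 0.0224). That call ended without liver replicate 5, which held nearly all the counts (edgeR adjusted p = 0.487), without any 1 of the 3 spleen libraries (0.0622 to 0.0804) and with limma voom (adjusted p = 0.418). The Cxcl2 and Cxcl3 transcripts share an identical run of 157 bases, and how reads mapping to both were counted is not given in the sources used here. Counts of either gene are therefore uncertain by what the other may have lent it. The Cxcl2 count was 3.63 to 17.7 times the Cxcl3 count in the 8 VAT libraries, and how far shared reads set either count was not tested.

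**Figure D2:**
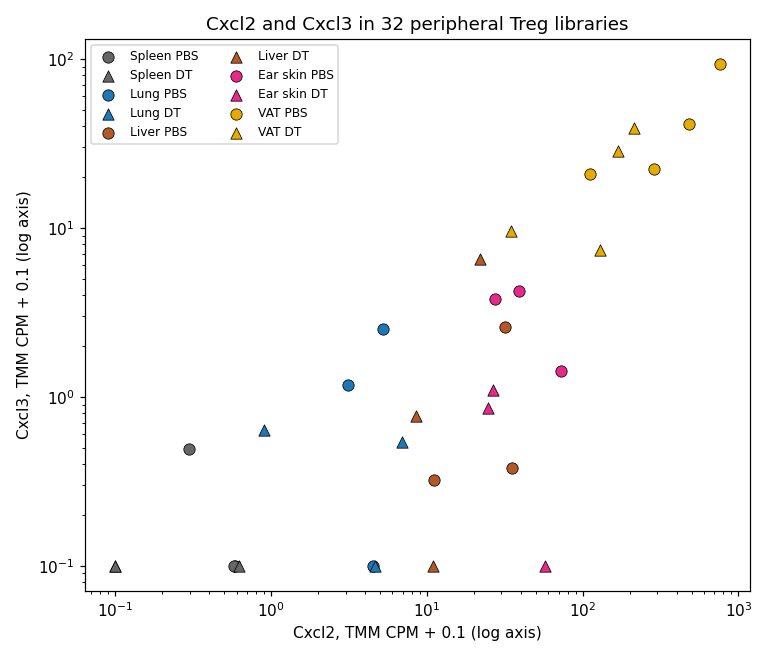
Cxcl2 (x axis) against Cxcl3 (y axis), both as TMM CPM + 0.1 on log axes, in 32 peripheral libraries, coloured by tissue, with circles for the PBS-labelled and triangles for the DT-labelled arm. The 8 VAT libraries lie at the upper right, with Cxcl3 from 7.31 to 93.4 CPM, and the spleen libraries at the lower left.

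Markers of cells known for Cxcl2 were examined beside this difference. The macrophage and monocyte sum was 4.34 to 11.9 CPM in PBS-labelled VAT and 8.99 to 10.3 CPM in PBS-labelled spleen, with all 8 markers detected in each group. Neutrophil markers summed to 0.433 to 1.90 CPM in VAT and 1.18 to 2.43 CPM in spleen, with S100a9 and Retnlg at 0 in both. Dendritic cell markers (6) summed to 5.17 to 10.8 CPM in VAT and 15.7 to 35.7 CPM in spleen. The 3 mesothelial markers summed to 118 to 182 CPM in VAT and 6.62 to 8.81 CPM in spleen. Nearly all of that was Lrrn4, while Msln and Upk3b reached at most 0.65 and 1.06 CPM in VAT. The 5 markers of type 2 innate lymphoid cells summed to 497 to 816 CPM in VAT and 67.3 to 96.0 CPM in spleen, mostly through Rora, with Il5 at 36.5 CPM on average in VAT and Il13 at 0.47 CPM. The part of these markers' cells in the Cxcl2 and Cxcl3 levels was not tested. Leaving out replicate 7 of DT-labelled VAT, the library rich in macrophage and fibroblast markers, left the VAT difference of that arm at a fitted 9.56 for Cxcl2 (edgeR adjusted p = 3.59e-08) and kept Cxcl3 called (edgeR adjusted p = 0.000201).

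**Figure D3:**
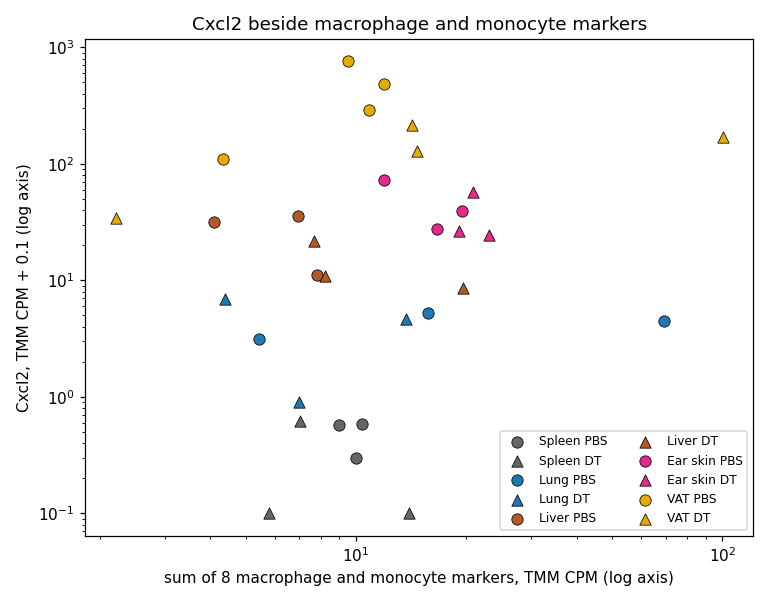
Cxcl2 (y axis, TMM CPM + 0.1) against the sum of 8 macrophage and monocyte markers (x axis, TMM CPM), both on log axes, in 32 peripheral libraries. The 4 PBS-labelled VAT libraries lie between 4.34 and 11.9 CPM of markers, the same span as most spleen and liver libraries, with Cxcl2 from 111 to 756 CPM.

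Cxcl10, which interferon induces in many cells, was called higher than in spleen in all 4 tissues of both arms. PBS-labelled liver held 65.4, 118 and 47.7 CPM, lung 46.9, 33.4 and 33.6 CPM, ear skin 17.8, 34.2 and 41.8 CPM and VAT 32, 8.87, 21.5 and 15.9 CPM. Spleen of that arm held 5.498, 4.50 and 1.89 CPM, below every tissue library. DT-labelled libraries ranged over 35.7 to 58.0 CPM in liver, 36.2 to 70.8 CPM in lung, 25.04 to 31.2 CPM in ear skin and 5.73 to 29.6 CPM in VAT, against 1.56 to 6.70 CPM in spleen, so that only VAT overlapped spleen there. In the thymus Cxcl10 was 0 to 5.15 CPM, and no comparison of ages or populations was called. The log2 differences from spleen in the PBS-labelled arm were 4.29 ± 0.53 in liver (edgeR adjusted p = 3.15e-07), 3.28 ± 0.52 in lung (2.29e-05), 3.08 ± 0.52 in ear skin (3.26e-05) and 2.31 ± 0.50 in VAT (0.00106). In the DT-labelled arm they were 3.82 ± 0.54 in liver (edgeR adjusted p = 2.85e-06), 3.86 ± 0.54 in lung (2.43e-06), 3.06 ± 0.54 in ear skin (6.17e-05) and 2.08 ± 0.51 in VAT (0.00641). The DT-labelled VAT call ended with limma voom (adjusted p = 0.0533) and without replicate 5 or 6 of spleen or replicate 5 of VAT (edgeR adjusted p = 0.0593 to 0.073). Dendritic cell markers, of cells that can make Cxcl10, summed to 49.7 to 84.0 CPM in PBS-labelled lung, 38.8 to 46.0 CPM in liver, 26.6 to 56.2 CPM in ear skin and 5.17 to 10.8 CPM in VAT, against 15.7 to 35.7 CPM in spleen, where Clec10a was at 0. The DT-labelled ranges were 38.3 to 88.5 CPM in lung, 30.7 to 54.5 CPM in liver (Clec9a and Cd209a at 0), 22.1 to 63.5 CPM in ear skin, 10.7 to 33.6 CPM in VAT (Clec10a at 0) and 13.2 to 16.3 CPM in spleen. The 5 hepatocyte markers summed to 128 to 245 CPM in PBS-labelled lung, 203 to 326 CPM in liver, 67.0 to 89.0 CPM in ear skin and 20.1 to 38.9 CPM in VAT, against 3.33 to 10.5 CPM in spleen. Most of that was Trf, while Alb averaged 8.01 CPM in liver and 0.301 CPM in lung. The part of these markers' cells in the Cxcl10 levels was not tested. Exons of Cxcl10 overlap those of Art3, which averaged 4.24 CPM or less in every group.

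The Cxcl10 promoter is shown because it differs from the pair above in its motifs. The 250 bases before the RefSeq start lie on the minus strand at chr5:92348890-92349139 (GRCm38.p6), and capitals mark 1 pair of GAAA runs with 2 bases between, the core of an interferon response element, followed by 2 stretches that match the NF-kB consensus.
Cxcl10: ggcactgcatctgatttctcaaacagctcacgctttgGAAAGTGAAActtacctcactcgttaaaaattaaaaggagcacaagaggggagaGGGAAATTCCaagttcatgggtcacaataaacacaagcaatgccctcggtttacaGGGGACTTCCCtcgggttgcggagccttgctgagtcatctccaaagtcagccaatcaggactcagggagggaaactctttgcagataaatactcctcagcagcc
Such a pair, searched on both strands, was found in 978 of 32851 promoters (2.98%) and in 1 of the 7 ligand promoters.

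**Figure D4:**
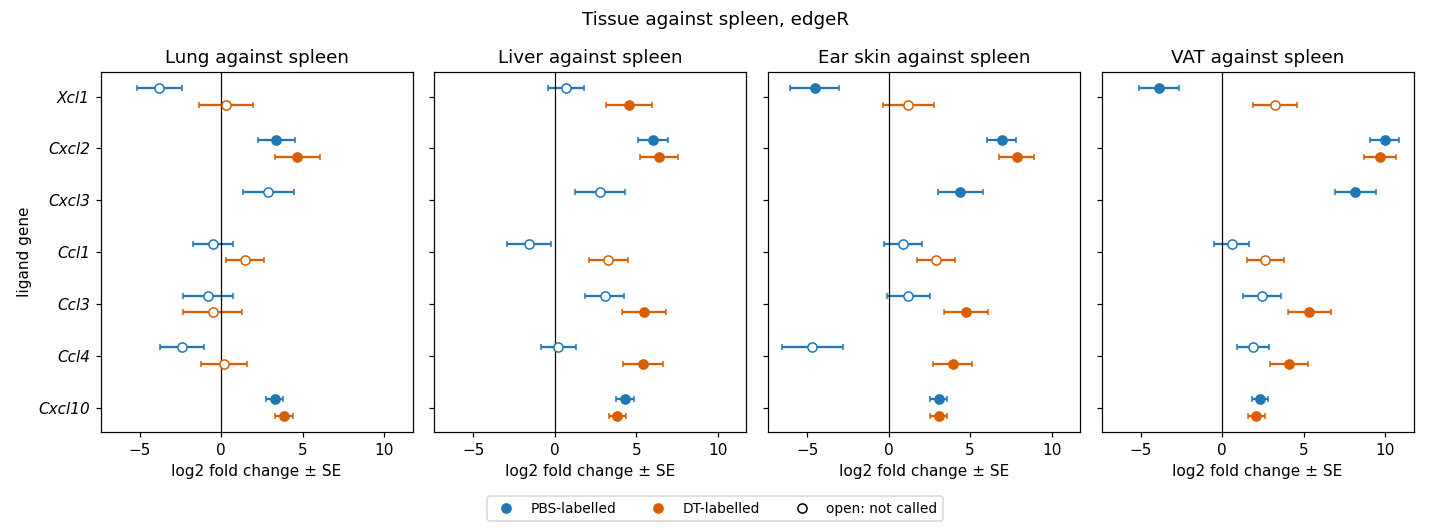
Log2 fold change ± SE (x axis, edgeR) of each tested ligand (y axis) in 4 tissues against spleen, in the PBS-labelled (blue) and DT-labelled (orange) arm, with filled points for calls and Cxcl3 of the DT-labelled arm left out because its spleen group is at 0. Cxcl2 and Cxcl10 lie to the right of 0 in every tissue and arm, while Xcl1 lies to the left in PBS-labelled lung, ear skin and VAT.

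Ccl3 and Ccl4, neighbours 13.2 kb apart on chromosome 11, were variable between libraries. In the DT-labelled arm both were called above spleen in liver, ear skin and VAT, but not in lung. Ccl4 averaged 0.946 CPM in DT-labelled lung and 0.961 CPM in spleen, and Ccl3 held 1 count in lung and 2 in spleen. With its filter, edgeR called neither gene in the PBS-labelled arm and no difference between the arms' contrasts. Ccl4 held 21.2, 6.72 and 88.3 CPM in DT-labelled liver, 10.2, 21.5 and 5.70 CPM in ear skin and 22.7, 32.3, 4.13 and 1.54 CPM in VAT, against 0, 0.80 and 2.09 CPM in spleen. All liver and ear skin libraries lay above the spleen libraries, and VAT overlapped them. The log2 differences were 5.42 ± 1.23 in liver (edgeR adjusted p = 0.0022), 3.93 ± 1.21 in ear skin (0.0181) and 4.08 ± 1.17 in VAT (0.0219). Ccl3 held 8.80, 1.68 and 10.8 CPM in liver, 0.73, 8.09 and 3.02 CPM in ear skin and 8.12, 13.5, 3.58 and 0.44 CPM in VAT of that arm. With 2 counts over the 3 spleen libraries, the Ccl3 ratio was 49.5 in liver (13.3 to 415, edgeR adjusted p = 0.00472), 31.9 in ear skin (8.31 to 272, edgeR adjusted p = 0.00992) and 47.5 in VAT (12.9 to 397, edgeR adjusted p = 0.00642). The liver calls of both genes were kept in every alternative that tested them, and Ccl3 did not pass the filter of the fit on liver and spleen alone. The ear skin calls of both ended without replicate 5 of ear skin (edgeR adjusted p = 0.0886 for Ccl3 and 0.0943 for Ccl4) and without replicate 5 of spleen (0.0576 and 0.0711), and the VAT calls of both without that spleen library (0.0539 and 0.101). The Ccl4 calls in ear skin and VAT also ended without replicate 4 of spleen (0.0908 and 0.126), and the VAT call without replicate 5 or 6 of VAT (0.0507 and 0.0847) and with limma voom (0.0798).

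In the PBS-labelled arm edgeR called neither gene against spleen. DESeq2 called Ccl3 higher in liver (adjusted p = 0.0434) and Ccl4 lower in ear skin (adjusted p = 0.0248), and without a filter edgeR called Ccl3 higher in liver (adjusted p = 0.047) and Ccl4 lower in lung (0.00741) and ear skin (6.36e-06) and higher in VAT (0.0068). Ccl4 held 0.67, 6.81 and 3.33 CPM in PBS-labelled liver, 31.8, 7.35, 1.48 and 5.79 CPM in VAT and 4.04, 0.59 and 5.20 CPM in spleen. In PBS-labelled ear skin it was nearly absent, with 0, 0.28 and 0 CPM. Ccl3 reached 5.22 CPM in liver and 3.74 CPM in VAT. Killer and CD8 T cell markers (6) were set beside these values because such cells are known for both ligands. They summed to 45.8 to 63.3 CPM in DT-labelled liver, 25.2 to 35.7 CPM in PBS-labelled liver and 20.1 to 41.7 CPM in DT-labelled spleen, with Klra8 at 0 in all 3 groups, and Cd8b1 gave most of the sum. In DT-labelled VAT the replicates with the most Ccl3 and Ccl4, 5 and 6, had sums of 83.2 and 102 CPM. Replicates 7 and 8 had 19.5 and 30.2 CPM. In PBS-labelled VAT the order was not the same. Replicate 1, with the most Ccl3 and Ccl4, had the lowest sum, 21.5 CPM. Replicates 2, 3 and 4 had 50.4, 31.9 and 32.9 CPM. In ear skin the sums overlapped, with 14.4 to 20.1 CPM in the DT-labelled and 14.4 to 29.1 CPM in the PBS-labelled arm. Their part in the Ccl3 and Ccl4 levels was not tested.

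Ccl1, the ligand of the receptor Ccr8 that many tissue Treg cells carry, was low and variable in the periphery and was not called by edgeR against spleen there. DT-labelled liver held 29.4, 6.72 and 4.04 CPM, ear skin 1.46, 14.4 and 13.4 CPM and VAT 0.81, 2.84, 19.0 and 11.9 CPM, against 3.80, 0.20 and 0 CPM in spleen. The liver libraries lay above the spleen libraries, and the difference of 3.28 ± 1.18 missed the threshold (edgeR adjusted p = 0.0614). In DT-labelled liver and ear skin it was called higher in 5 of 12 alternatives each, among them limma voom (adjusted p = 0.0171 and 0.0389) and edgeR on the compared libraries alone (adjusted p = 0.0283 and 0.0253), and in VAT in 2 of 13. PBS-labelled groups had means of 0.580 CPM in liver to 2.97 CPM in ear skin.

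Xcl1 in the periphery was highest in liver. It held 2.46, 16.6 and 5.54 CPM in PBS-labelled and 8.05, 3.84 and 9.10 CPM in DT-labelled liver. PBS-labelled spleen was uneven, with 2.43, 0 and 13.01 CPM, while DT-labelled spleen held 0.54, 0 and 0.26 CPM. The lower calls of PBS-labelled ear skin (0, 0 and 0.53 CPM, edgeR adjusted p = 0.028) and VAT (0 to 0.87 CPM, edgeR adjusted p = 0.0263) rest on replicate 3 of spleen, without which the adjusted p was 0.254 and 0.41, and both were lost with limma voom (0.765 and 0.834) and without single ear skin or VAT libraries (edgeR adjusted p = 0.0564 to 0.102). DT-labelled liver was called higher than its spleen by 4.56 ± 1.41 (edgeR adjusted p = 0.0266), and leaving out single liver or spleen libraries raised the adjusted p to as much as 0.128.

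Ccl20, which draws Ccr6-bearing cells to epithelia, was at 0 in all 8 VAT libraries and reached 1.86, 0.60 and 1.95 CPM in PBS-labelled lung, its highest group. At 19 counts over those 3 libraries against 2 in spleen the ratio was 12.0 (2.90 to 107), with no test because the gene did not pass the filter.

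Within tissues, the DT-labelled and PBS-labelled arms differed in 1 of 20 tests. Ear skin gave the call, 1 of 4 ligands tested, where 0.277% of all genes were called higher. It was Ccl4, whose 3 DT-labelled libraries (130 counts) all lay above the 3 PBS-labelled ones (1 count), a ratio of 150.2 (26.5 to 5978, edgeR adjusted p = 0.00195). Ccl4 passed the filter of that fit through the DT-labelled libraries alone. Without replicate 5 of DT-labelled ear skin the edgeR adjusted p was 0.0511. In liver 0 of 6 ligands were called with edgeR, as were 0% of all genes, and 2 of the 6 had an unadjusted p under 0.05. These were Ccl1, which held 0, 0.91 and 0.83 CPM in the PBS-labelled and 29.4, 6.72 and 4.04 CPM in the DT-labelled arm (4.47 ± 0.93, edgeR adjusted p = 0.516, DESeq2 adjusted p = 0.000988), and Ccl4 (3.42 ± 0.90, edgeR adjusted p = 0.849). In VAT 0 of 6 were called, against 0.124% of all genes, and only Cxcl2 had an unadjusted p under 0.05. Its mean was 137 ± 76.5 CPM (SD, n = 4) in the DT-labelled and 409 ± 276 CPM (SD, n = 4) in the PBS-labelled arm, the libraries overlapped, and the difference of -1.53 ± 0.55 was not called (edgeR adjusted p = 0.50). In spleen and lung 0 of 2 ligands were called, with 0% of all genes called in either and 0 of 2 ligands at an unadjusted p under 0.05 in each tissue, and DESeq2 called 0 there too. Leaving out the expression filter gave 5 calls over the 5 tissues and DESeq2 gave 2.

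The arm difference was also compared with that of spleen in each tissue. With edgeR 0 of 28 tests were called, beside 0% of all genes for lung and liver, 0.0451% for ear skin and 0.0169% for VAT. Of the 28, 6 had an unadjusted p under 0.05, DESeq2 called 1 (Ccl4 in ear skin, adjusted p = 0.029) and the fit without a filter called 4. A difference of the arm effect from that of spleen is thus not shown for any ligand by edgeR with its filter. The depth of 0 to 3 counts in many groups limits the test.

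In the thymus only Xcl1, Ccl1, Ccl4 and Cxcl10 passed the filter, and the first 3 were lower in P2 than in P1 at day 5 and 12. Ccl1, which held at most 1.48 CPM in P2, passed that filter through its day 5 P1 libraries, and Ccl4 mainly through P1. The counts of lower calls in P2 therefore lean on genes that were tested because P1 was high. P2 was called lower for 3 of 4 ligands at day 5 (8.4% of all genes called lower), 3 of 4 at day 12 (23.8%) and 1 of 4 at day 49 (12.9%). With edgeR 0 of 4 were called higher at each age, where 6.79%, 17.6% and 16.6% of all genes were. Xcl1 held 25.6, 24.3 and 20.3 CPM in P1 at day 5, 23.1, 15.2 and 20.2 CPM at day 12 and 28.0, 20.7 and 28.7 CPM at day 49. P2 held 0, 4.37 and 3.17 CPM, then 5.59, 1.497 and 3.13 CPM, then 2.86, 0.30 and 1.21 CPM. The 9 P1 libraries all lay above the 9 P2 libraries. The differences were -3.18 ± 0.58 at day 5 (edgeR adjusted p = 0.000538), -2.65 ± 0.56 at day 12 (0.000952) and -3.97 ± 0.64 at day 49 (0.000115), and these calls were kept in every alternative run. No age comparison of Xcl1 was called in either population. Its exons overlap those of Gm20743, which averaged 3.87 CPM or less in every group.

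In the thymus Ccl1 was highest in P1 at day 5. It held 9.38, 5.88 and 5.37 CPM at day 5, 0.34, 0.90 and 5.69 CPM at day 12 and 0.23, 0 and 0 CPM at day 49. P2 held 0 in all 6 libraries of day 5 and day 12, so that P2 was at least 32.1-fold lower at day 5 (edgeR adjusted p = 0.00342) and at least 10.2-fold lower at day 12 (edgeR adjusted p = 0.00725, or 0.0523 without replicate 3 of day 12 P1). At day 49 P2 held 0, 1.48 and 0.81 CPM, which was not called higher than in P1 (edgeR adjusted p = 0.0438 without replicate 1 of P2). The change from day 5 to day 49 was called different between P2 and P1 for Ccl1, 1 of 4 ligands (edgeR adjusted p = 0.0499, 0.157% of all genes called higher), a call lost in most alternatives. With age in P1, 1 of 4 ligands was called lower at day 49 against day 5 (6.5% of all genes) and 1 of 4 at day 49 against day 12 (13.5%), and 0 of 4 were called at day 12 against day 5 (18.3% of all genes in either direction, 0 of 4 ligands at an unadjusted p under 0.05). Both calls were Ccl1, which entered the test through its day 5 P1 libraries. The ratio of day 5 to day 49 was 98.2 (17.3 to 3912, edgeR adjusted p = 0.00928, or 0.053 without replicate 3 of day 49) and that of day 12 to day 49 was 31.8 (5.33 to 1295, edgeR adjusted p = 0.0287, or 0.199 without replicate 3 of day 12 and 0.0888 and 0.1 without replicate 2 or 3 of day 49).

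Ccl4 was also higher in P1 at day 5 and 12. P1 held 4.69, 2.02 and 6.34 CPM at day 5, 1.03, 6.72 and 1.69 CPM at day 12 and 6.42, 7.51 and 2.43 CPM at day 49. P2 held 0, 0.23 and 0.20 CPM, then 0 in 3 libraries, then 0.57, 3.55 and 3.82 CPM. The ratio of P1 to P2 was 31.6 at day 5 (8.43 to 265, edgeR adjusted p = 0.00702) and at least 13.6 at day 12 (edgeR adjusted p = 0.00118), while at day 49 the populations overlapped. With age in P2, Ccl4 was the 1 ligand of 4 called higher at day 49 against day 12 (9.02% of all genes) and against day 5 (14.7%), and 0 of 4 were called at day 12 against day 5 (5.16% of all genes, 0 at an unadjusted p under 0.05). The day 49 rise was at least 12.9-fold against day 12 (edgeR adjusted p = 0.00876) and 19.9 in ratio to day 5 (5.08 to 171, edgeR adjusted p = 0.014, or 0.0601 without replicate 1 of day 5). Replicates 2 and 3 of day 49 P2, where Ccl4 was highest, are those with many macrophage markers, and without both the adjusted p was 0.325 and 0.605. Macrophage markers summed to 20.0 CPM in replicate 1 of that group and 2.06 to 8.05 CPM in P2 at day 5, with Cd14 at 0 throughout, and their part in the rise was not tested. The change of Ccl4 from day 5 to day 49 did not pass the test of its difference between populations (3.88 ± 1.41, edgeR adjusted p = 0.226), and from day 5 to day 12 edgeR called 0 of 4 such differences (3.67% of all genes, 0 at an unadjusted p under 0.05). Killer and CD8 T cell markers summed to 51.2 to 98.6 CPM in P1 and 24.2 to 46.0 CPM in P2 over the 3 ages, higher in P1 at every age, and their part in the Xcl1, Ccl1 and Ccl4 differences was not tested.

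Cxcl2 and Cxcl3 were at 3 counts or fewer in every thymus group, and Ccl3 held at most 2.42 CPM and Ccl20 at most 0.89 CPM in any thymus library. No fold is given for them where both groups were at or under 3 counts.

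The receptors of these ligands were measured in the same libraries of sorted cells. Of 8 receptors 6 passed the filter in the periphery. In the PBS-labelled arm 3 of 6 were called higher than in spleen in lung, 4 in liver, 5 in ear skin and 4 in VAT, with 1 called lower, in ear skin. The shares of all genes called higher there were 8.14%, 9.15%, 11.1% and 8.67%, and 12.5% were called lower in ear skin. The median log2 difference was 1.63 in lung, 2.60 in liver, 3.17 in ear skin and 2.42 in VAT, where that of all genes tested was between -0.06 and 0.14. Ccr1, a receptor for Ccl3, was 234 ± 124 CPM (SD, n = 4) in VAT and 2.77 ± 2.21 CPM (SD, n = 3) in spleen (6.42 ± 0.64, edgeR adjusted p = 3.86e-09). Ccr8, the Ccl1 receptor, was 452 ± 110 CPM in ear skin and 52.8 ± 15.5 CPM in spleen (3.22 ± 0.33, edgeR adjusted p = 5.12e-09). The receptor called lower in ear skin, named after its values were seen, was the Cxcl10 receptor Cxcr3, at 17.5 ± 5.96 CPM against 204 ± 62.2 CPM in spleen, where its ligand was called higher.

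In the DT-labelled arm 3 of 6 receptors were called higher in lung, 4 in liver, 4 in ear skin and 4 in VAT (8.48%, 8.18%, 10.5% and 5.7% of all genes), again with 1 lower in ear skin (11.6% of all genes). Between the arms of ear skin, Cxcr3 was higher in the DT-labelled (72.8 ± 41.0 against 17.5 ± 5.96 CPM, edgeR adjusted p = 0.00863) and Ccr6, the Ccl20 receptor, lower (121 ± 21.5 against 221 ± 26.5 CPM, edgeR adjusted p = 0.0214). That was 1 of 6 receptors called higher, where 0.277% of all genes were, and 1 called lower. Between the arms of spleen, lung, liver and VAT 0 receptors were called. In the thymus Ccr8 was lower in P2 than in P1 at every age, with 130 ± 18.4 against 286 ± 16.6 CPM at day 5 and 64.5 ± 29.2 against 173 ± 10.8 CPM at day 49, the same order as its ligand Ccl1 at day 5 and 12.

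Among 26 other chemokine ligands, 9 passed the filter in the periphery. In the PBS-labelled arm, against spleen, 1 of 9 was called higher in lung, 3 in liver, 2 in ear skin and 2 in VAT (8.14%, 9.15%, 11.1% and 8.67% of all genes). Ccl25 was the 1 of 9 called lower in liver, ear skin and VAT, where 7.85%, 12.5% and 6.27% of all genes were called lower. Ccl5, a T cell and monocyte attractant, was 226 ± 16.4 CPM in PBS-labelled liver and 70.4 ± 17.95 CPM in spleen (1.73 ± 0.43, edgeR adjusted p = 0.00461), and 615 ± 202 CPM in DT-labelled liver against 88.1 ± 9.85 CPM (2.83 ± 0.45, edgeR adjusted p = 2.16e-05). Cxcl16, a membrane-bound chemokine, was 4.58 ± 3.90 CPM in PBS-labelled ear skin and 0.369 ± 0.506 CPM in spleen (3.79 ± 1.01, edgeR adjusted p = 0.00565). Cxcl1 and Cxcl5, further Cxcr2 ligands named here after their values were seen, were called higher in PBS-labelled VAT. VAT held 8.79 ± 11.9 CPM of Cxcl1 and 3.15 ± 3.16 CPM of Cxcl5. For both genes the SD passed the mean, and how far the calls rest on single libraries was not tested. Cxcl1 was also called higher in PBS-labelled liver and ear skin. In the DT-labelled arm 0 of 9 were called higher in lung, 2 in liver, 0 in ear skin and 2 in VAT (8.48%, 8.18%, 10.5% and 5.7% of all genes). There 1 was called lower in liver and 1 in VAT (5.08% and 3.15% of all genes). The ear skin calls of Cxcl16 and Cxcl1 were thus not repeated in that arm.

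Genes of pathways known to switch these ligands on (18 genes of NF-kB, calcium and interferon signalling) were also read. In the PBS-labelled arm 10 of 18 were called higher and 2 lower in lung, 10 and 2 in liver, 9 and 6 in ear skin and 8 and 3 in VAT. Of all genes 8.14% were called higher and 7.79% lower in lung, 9.15% and 7.85% in liver, 11.1% and 12.5% in ear skin and 8.67% and 6.27% in VAT. Tnfaip3, an NF-kB target that restrains the pathway, was 3132 ± 1114 CPM in liver, 1432 ± 899 CPM in VAT and 99.6 ± 20.2 CPM in spleen (5.01 ± 0.40 in liver and 3.86 ± 0.37 in VAT). Nfkbid, an atypical NF-kB regulator, was 718 ± 347 CPM in VAT against 67.8 ± 23.7 CPM (3.42 ± 0.34), and Irf4, a factor of effector Treg cells, 361 ± 66.1 CPM in ear skin against 35.5 ± 21.5 CPM (3.46 ± 0.31). In the DT-labelled arm 9 of 18 were called higher and 3 lower in lung (8.48% and 6.15% of all genes), 11 and 1 in liver (8.18% and 5.08%), 7 and 6 in ear skin (10.5% and 11.6%) and 8 and 1 in VAT (5.7% and 3.15%). In the thymus, P2 against P1, 5 of 17 tested genes of the list were called higher and 4 lower at day 5 (6.79% and 8.4% of all genes), 4 and 4 at day 12 (17.6% and 23.8%), and 5 and 5 at day 49 (16.6% and 12.9%). At day 12 both counts were near the shares of all genes, with Irf1 at 416 ± 28.7 CPM in P2 and 107 ± 5.13 CPM in P1 at day 12.

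Per kilobase of summed exon length, the ligand with the highest level differed between groups. Xcl1 ranked first in P1 at each age, with 44.7 ± 5.24 CPM per kb at day 5, followed by Ccl4 with 6.59 ± 3.30. Cxcl10 ranked first in lung of both arms and in PBS-labelled liver (34.2 ± 16.3 CPM per kb), Ccl4 in DT-labelled liver (58.7 ± 65.9), Cxcl2 in PBS-labelled ear skin (22.4 ± 11.3) and in VAT of both arms. In PBS-labelled VAT Cxcl2 stood at 198 ± 134 CPM per kb, and the next, Ccl4, at 17.6 ± 20.8. The exon models of Cxcl2, Cxcl3 and Cxcl10 together cover the whole gene, introns included, so values per kilobase of these 3 understate those of a spliced transcript. Ccl1 and Ccl20 also pool 13 and 8 exon models, of 2369 and 1421 bases, while Ccl4 has 3 of 660 bases. The ranking between ligands depends on these lengths.

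The genes whose 16 group means of log2 (CPM + 1) were most like those of a ligand were sought among 9869 expressed genes, as a description over groups of the same libraries. For Cxcl2 these were Fosb (Pearson r = 0.971), Adcy4 (0.968) and Frmd5 (0.967), and for Cxcl3 Kcna4 (0.979), Fam183b (0.965) and Serpinb6a (0.959). Cxcl10 was most like Gna13 (0.986), Ky (0.984) and Hopx (0.976). Xcl1 was nearest to Nfyb (0.893), Ccl4 to Ube2g2 (0.806), Arfgap3 (0.780) and Ifng (0.759), and Ccl1 to Ttc37 (0.753). Among the ligands themselves r was 0.880 for Cxcl2 with Cxcl3 and 0.802 for Ccl3 with Ccl4.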

How the data were processed

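The authors deposited raw counts, 1 whole number for each gene symbol and library, in a single table of 50 libraries. Per the submitters' processing notes the genome build was mm10, the aligner STAR 2.7.3a and the counter featureCounts; annotation, strand setting and the treatment of multiply mapping reads were not given in the sources used here. The extraction text in the labels describes another tissue. From the counts, genes were tested with edgeR 4.0.16 (glmQLFit and glmQLFTest, two-sided, R 4.3.3), TMM normalisation, filterByExpr (minimum count 10, total 15) and Benjamini-Hochberg adjustment over all genes tested, at 0.05. Thymus (18 libraries) and periphery (32) were fitted apart, and DT against PBS within each tissue. Printed levels are TMM CPM. The step was tested on simulated counts. Alternatives were DESeq2 1.42.0, limma voom 3.58.1 with quality weights, other size factors, no filter, only the compared libraries, a replicate block and leaving out libraries. The omission of both day 49 P2 libraries rich in macrophage markers was among them. Gene models are from GENCODE M21 and promoters from RefSeq (7 of 8 ligands matched). Other genes named were the 3 with the smallest adjusted p per list and set of comparisons, unless said otherwise, and for likeness the 3 highest correlations. The values of 1 receptor that this rule names are not reported here. The ligands and lists were chosen with earlier results of these data known. No 2 replicates of a group looked like 1 library deposited again (54 pairs, lowest chi-square over its degrees of freedom 3.61).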

Additional observations from a re-analysis of the deposited data

Results flagged for a closer look

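The change of Ccl1 from day 5 to day 49 differed between the 2 thymic populations by the test of the difference itself. The fitted log2 difference, P2 minus P1, was 11.23 (edgeR adjusted p = 0.0499), and 0.157% of all genes were called higher in that test. P1 held 9.38, 5.88 and 5.37 CPM at day 5 and 0.23, 0 and 0 CPM at day 49, while P2 held 0 in all 3 libraries at day 5 and 0, 1.48 and 0.81 CPM at day 49. With P2 at 0 counts at day 5 and 9 counts at day 49, and P1 at 113 and 1, the fitted size depends on the prior count and is no estimate of the fold. The adjusted p rose to 0.0757 with the replicate block and lay between 0.052 and 0.116 in the 11 single-library omissions that ended the call, and it was 1 without both of the day 49 P2 libraries rich in macrophage markers.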

How the results depend on the processing

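Of 42 ligand calls, 20 were kept in every alternative that tested them (17 of these were tested in all), 22 were lost in at least 1 and 0 reversed. For 13 calls at least 1 alternative gave no test, in the fits on the compared libraries alone because the gene did not pass the filter there, and for Ccl1 at day 5 in P2 against P1 because DESeq2 gave no adjusted p. A further 25 comparisons not called here were called in at least 1 alternative. Age in P1 gave 2 calls, 1 with the replicate block, 1 with the compared libraries alone (the other was not tested) and 0 to 2 with single libraries left out. Day 49 against day 5 in P1 gave 1 call with and without the day 12 P1 libraries in the fit, an alternative added after seeing the data. Age in P2 gave 2, with 4 by limma voom, 0 when fitted on the compared libraries alone (neither was tested, since Ccl4 did not pass that filter), 0 when day 49 P2 replicates 2 and 3 were both left out, and 1 to 4 with single libraries left out. P2 against P1 gave 7, and 6 to 8 with single libraries left out. PBS-labelled tissues against spleen gave 12, with 7 by limma voom and 8 to 13 with single libraries left out. DT-labelled tissues gave 17, and 9 to 17 with single libraries left out, the 9 without replicate 5 of spleen. DT against PBS gave 1, with 5 without a filter, 2 by DESeq2, and 0 to 1 with single libraries left out, the 0 without replicate 5 of DT-labelled ear skin. The difference of the DT effect gave 0, with 4 without a filter, 1 by DESeq2 and 0 with single libraries left out. The difference of the age effect gave 1, with 0 by the replicate block, 0 when fitted on the compared libraries alone, 0 when both of those P2 libraries were left out and 0 to 2 with single libraries left out. In all these the cause was not tested, beyond the fewer libraries that omission leaves. Same-numbered libraries did not deviate together by the limit of 0.1 in every pair of any comparison (0.0720 to 0.118 in PBS-labelled ear skin and spleen, 0.0884 to 0.106 in DT-labelled liver and spleen), so the replicate numbers were not taken to pair libraries. With the replicate block Ccl4 in PBS-labelled ear skin (-4.78, edgeR adjusted p = 0.0495), Xcl1 in PBS-labelled lung (-3.92, 0.0427) and Ccl1 in DT-labelled ear skin (3.75, 0.0343) were called against spleen, and Ccl1 at day 49 against day 12 in P1 was not (0.0571). Where an omission left a group with 1 or 2 libraries, the spread was taken from all groups of the fit. Many groups held 0 to 3 counts of a ligand, which limits the ratios to their counting intervals.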
